A study of Brassica napus with 27 samples.

Results

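LOG-type genes encode cytokinin riboside 5'-monophosphate phosphoribohydrolases. They were selected by this description and by an FPKM (fragments per kilobase of gene length, scaled to library size) of at least 1 in at least 3 of 27 libraries. The description was found for 15 genes, and 4 of them met the expression threshold: BnaA04g16350D, BnaA10g20660D, BnaAnng21190D, and BnaA07g37740D. The other 11 genes stayed below it. The same threshold left 46395 tested genes of 104573 in all.

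Leaves of Brassica napus (oilseed rape) cultivar Visby at growth stage BBCH11 were treated with drops of halauxifen (applied as halauxifen-methyl, Hal, 0.5 µg per leaf), picloram (Pic, 2.4 µg per leaf), or a control solution. Both compounds are auxinic herbicides. Leaves were frozen after 2, 48, and 96 h, and each of the 9 groups had 3 libraries made from different plant material. The sample label of the controls gives no treatment, while the design text names the solvent with DMSO, Triton, and NaOH. All groups were of the same cultivar and grew under the same conditions, and whole leaf tissue was used. The doses of Hal and Pic differed by design, so each comparison of the 2 compounds is one of these doses.

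Cytokinins are adenine-derived hormones that act on cell division, chloroplast development, and leaf senescence. Isopentenyltransferases make cytokinin nucleotides, and enzymes of the LONELY GUY (LOG) type, first named in rice, release the active free base from the riboside monophosphate in a single step. The active base is perceived by receptor histidine kinases, and the signal passes over phosphotransfer proteins to response regulators. Which LOG copy of Arabidopsis or rice each of these genes corresponds to was not analysed here, and no sequences of them were used here.

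The libraries held 15565637 to 19692242 reads worked back from FPKM and gene length, with a median of 16989644. The labelled tissue was checked by 64 genes of light-harvesting proteins, Rubisco small subunits, and photosystem I. Their summed FPKM lay between 98665 and 198111 in every library, whereas the 16 oleosin genes (seed oil body proteins) summed to between 0 and 1.38. No library was removed. In whole leaves, fewer cells of a type and less RNA per cell cannot be told apart.

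The 4 genes lie on 4 different scaffolds, given here as the file lists them. BnaA04g16350D spans LK032254 from 63922 to 68025 on the minus strand with 1111 bases of gene length. BnaA10g20660D spans LK031790 from 1508790 to 1510708 on the minus strand with 1060 bases. BnaAnng21190D spans LK034984 from 9952 to 11653 on the plus strand with 946 bases. BnaA07g37740D, the shortest of them, spans LK033124 from 64466 to 66893 on the plus strand with 722 bases. None of them overlapped another listed gene, and the nearest neighbor was 1325 bases away, beside BnaA10g20660D. Oilseed rape carries related A and C genome copies of most genes, and how reads shared by such copies were counted is not given in the sources used here.

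The levels of the 4 genes differed widely. BnaA04g16350D had a median of 31.0 FPKM over the 27 libraries and 16729 reads in all. BnaA10g20660D followed with a median of 2.24 FPKM and 1230 reads, and BnaAnng21190D with 1.71 FPKM and 947 reads. BnaA07g37740D had a median of only 0.734 FPKM and 286 reads, between 1 and 29 per library. It reached 1 FPKM in 9 libraries, all of them from herbicide-treated leaves at 48 or 96 h, and its 3 highest values went down to 1.59 FPKM. Just outside the threshold, BnaA09g04390D and BnaC06g14640D each reached 1 FPKM in 1 library, and their 3 highest values went down to 0.775 and 0.384 FPKM. Since BnaA07g37740D passed only through treated leaves, its difference from the controls was in part set by the selection. BnaAnng21190D reached 1 FPKM in 19 libraries, and of these only 2 were controls.

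After both herbicides, BnaAnng21190D rose at 48 and 96 h and BnaA07g37740D at 48 h, whereas BnaA10g20660D rose after Hal at these times and fell after Pic at 48 h. BnaA04g16350D fell after both at 2 h, and again at 48 h (Hal) and 96 h (both), and these later falls were lost when libraries were set to equal totals of reads but not with median-ratio scaling. At 2 h, 0 of the 4 genes rose and 1 fell after each herbicide, while 10.1% of all tested genes were called up and 11.4% down for Hal, and 10.7% up and 9.37% down for Pic. At 48 h after Hal, 3 rose and 1 fell (23.3% of the tested genes called up and 25.1% down), and at 96 h, 2 rose and 1 fell (29.1% up and 30.2% down). At 48 h after Pic, 2 rose and 1 fell (13.9% up and 17.9% down), and at 96 h, 1 rose and 1 fell (22.2% up and 26.4% down). As many tested genes changed and as the threshold favors genes that are high in treated leaves, the counts describe the 4 genes and no more. Both herbicides were compared with the same controls.

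**Figure D1:**
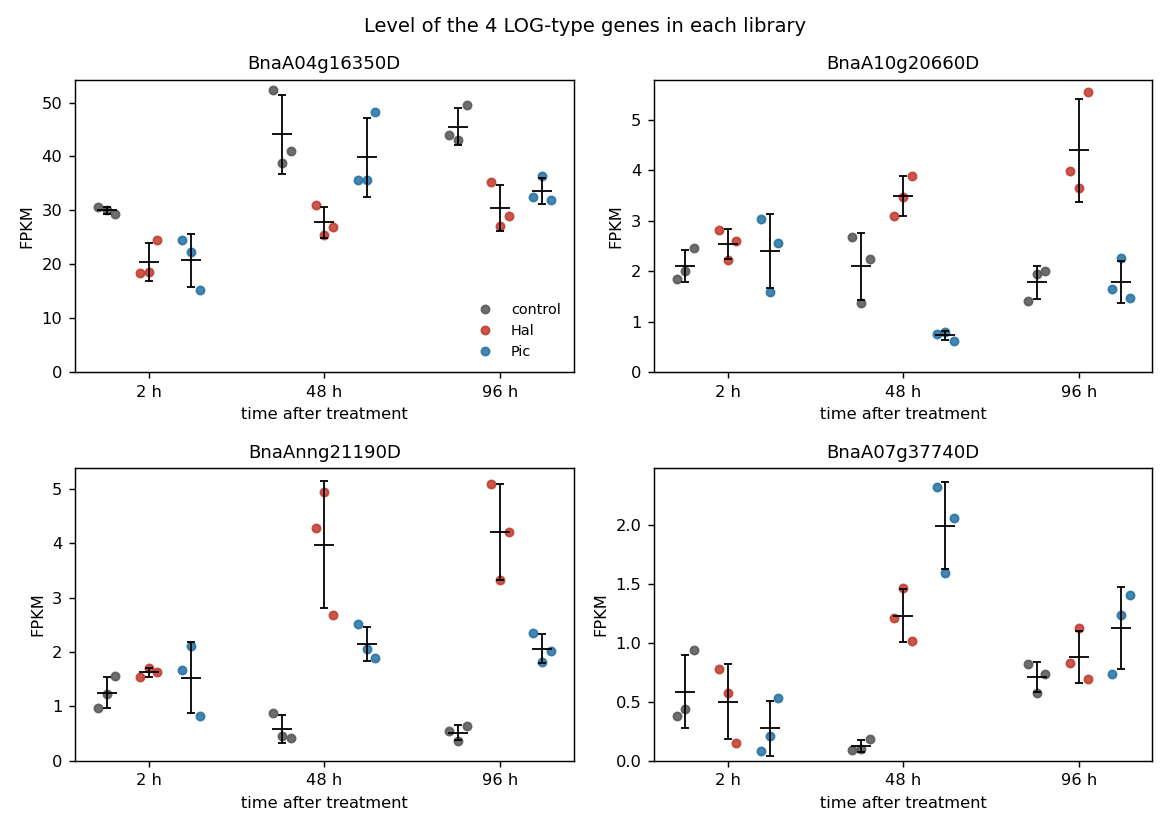
FPKM of the 4 LOG-type genes (vertical axes, each from 0) by hours after treatment (horizontal axis) for control, Hal, and Pic, where each point is 1 library and bars give mean ± SD (n = 3). BnaAnng21190D lay between 2.68 and 5.09 FPKM after Hal at 48 and 96 h, and between 0.363 and 0.876 FPKM in the controls of these times.

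BnaA04g16350D was the most abundant LOG-type gene in every library, and it was the only one of the 4 that changed at 2 h. The controls at 2 h gave 30.7, 30.1, and 29.3 FPKM, Hal-treated leaves 18.3, 18.5, and 24.5 FPKM, and Pic-treated leaves 24.5, 22.3, and 15.2 FPKM. All treated libraries were thus below all controls, with means of 20.4 ± 3.496 (Hal), 20.7 ± 4.86 (Pic), and 30.0 ± 0.668 FPKM (control, SD, n = 3). On the log2(FPKM + 1) scale, the transcript fell by 0.55 after Hal (SE 0.153, adjusted p = 0.0116 in limma) and by 0.54 after Pic (SE 0.153, adjusted p = 0.0122). The calls depended on single libraries. Without Hal replicate 1 or replicate 2, the Hal difference was -0.48 on that scale (adjusted p = 0.0574 and 0.0541), and without Pic replicate 3, the Pic difference was -0.35 (adjusted p = 0.123).

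At 48 h, BnaA04g16350D was at 52.4, 38.8, and 41.1 FPKM in controls, at 31.0, 25.4, and 27.003 FPKM after Hal, and at 35.6, 35.6, and 48.2 FPKM after Pic. Hal libraries were all below the controls, while those of Pic overlapped with them. At 96 h, the controls gave 43.9, 43.1, and 49.5 FPKM, Hal 35.3, 27.1, and 28.9 FPKM, and Pic 32.5, 36.4, and 31.9 FPKM. Here, both treatments were below all controls. The values fell by 0.64 (adjusted p = 0.00124) and 0.57 (adjusted p = 0.00249) after Hal at 48 and 96 h, and by 0.43 (adjusted p = 0.0241) after Pic at 96 h. For Pic at 48 h the difference was -0.15 (adjusted p = 0.503).

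These later falls of BnaA04g16350D were lost under 1 of 10 alternatives other than leaving out libraries. With median-ratio scaling over the tested genes, they were -0.63 and -0.54 for Hal at 48 and 96 h and -0.40 for Pic at 96 h (adjusted p = 0.00133, 0.00346, and 0.0332). When libraries were instead set to equal totals of reads, the median of all tested genes shifted by 0.25 and 0.41 on the log2 scale for Hal at 48 and 96 h and by 0.29 for Pic at 96 h. The difference then was -0.26 for Hal at 48 h (adjusted p = 0.138), 0.06 for Hal at 96 h (adjusted p = 0.729), and 0.03 for Pic at 96 h (adjusted p = 0.876). Relative to that shifted median, the 3 differences were -0.52, -0.36, and -0.24. At 2 h the median shifted by no more than 0.02, and both falls held, with -0.52 for Hal (adjusted p = 0.0115) and -0.51 for Pic (adjusted p = 0.0143). The Pic call at 96 h was also lost without control replicate 3 (-0.37, adjusted p = 0.0917), Pic replicate 1 (-0.40, adjusted p = 0.0663), or Pic replicate 3 (-0.39, adjusted p = 0.0744).

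At 96 h, the leaf marker genes fell as well. Of the 52 tested, 39 fell and 1 rose after Hal and 43 fell and 2 rose after Pic, beside 30.2% and 26.4% of all tested genes called down. At 48 h, 32 fell after Hal and 23 after Pic, where BnaA04g16350D was not called (25.1% and 17.9% of all tested genes). At 2 h, when BnaA04g16350D also fell, 16 of the 52 fell after Hal and 12 of the 52 after Pic, and 32 and 36 were not called (11.4% and 9.37% of all tested genes called down). Their summed FPKM was 168247 to 189997 in controls, 98665 to 107691 after Hal, and 115711 to 117542 after Pic at 96 h. Their part in the result was not tested.

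BnaAnng21190D showed the largest increase after Hal of the 4 genes on the log2(FPKM + 1) scale at both 48 and 96 h. In the ratio of mean FPKM at 48 h, BnaA07g37740D was higher, with 9.74 against 6.80. At 48 h, BnaAnng21190D was at 0.876, 0.459, and 0.419 FPKM in controls. It was at 4.29, 4.95, and 2.68 FPKM after Hal, and at 2.51, 2.05, and 1.89 FPKM after Pic. At 96 h, controls had 0.550, 0.363, and 0.640 FPKM, Hal 5.09, 3.33, and 4.21 FPKM, and Pic 2.35, 1.82, and 2.02 FPKM. At both times the 3 groups did not overlap, with Hal highest and controls lowest. At 2 h the values ran from 0.977 to 1.56 FPKM in controls, 1.54 to 1.71 after Hal, and 0.818 to 2.11 after Pic, and the groups overlapped.

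The mean FPKM of BnaAnng21190D was 6.80-fold that of controls after Hal at 48 h and 8.14-fold at 96 h. For Pic the ratios were 3.67 and 3.99. On the log2(FPKM + 1) scale, which understates changes of genes with low values, the increases were 1.63 (SE 0.186, adjusted p = 8.85e-08) and 1.77 (adjusted p = 1.39e-08) after Hal, and 1.00 (adjusted p = 0.000185) and 1.01 (adjusted p = 8.83e-05) after Pic. At 48 h after Hal, 98.4% of the tested genes had a lower log2 difference. The counts behind it were 251 reads after Hal and 20 in controls at 96 h, giving a depth-corrected ratio of 8.24 with a 95% exact interval of 5.22 to 13.7. This interval covers counting error only. The 4 calls kept their direction and passed in all alternatives that gave a value and without any single library.

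BnaA10g20660D was the only one of the 4 genes that changed in opposite directions after the 2 herbicides. At 48 h, controls gave 2.67, 1.37, and 2.24 FPKM, Hal 3.10, 3.47, and 3.88 FPKM, and Pic 0.764, 0.800, and 0.618 FPKM. All Hal libraries were above and all Pic libraries below the controls. The transcript rose by 0.56 after Hal (SE 0.173, adjusted p = 0.0104) and fell by 0.82 after Pic (adjusted p = 0.000701). The mean after Pic, 0.727 ± 0.0963 FPKM, was the lowest of this gene in the 9 groups. The rise after Hal at 48 h depended on control replicate 2, the lowest control, and without it the difference was 0.37 (adjusted p = 0.0887).

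At 96 h, BnaA10g20660D was at 1.40, 1.94, and 2.00 FPKM in controls, at 3.98, 3.65, and 5.55 FPKM after Hal, and at 1.65, 2.26, and 1.47 FPKM after Pic. Hal libraries were again all above the controls, and Pic libraries overlapped with them. The difference was 0.95 for Hal (adjusted p = 5.21e-05), a 2.46-fold higher mean, and 0.0012 for Pic (95% interval -0.36 to 0.36, adjusted p = 0.999). At 2 h, it ran from 1.85 to 2.46 FPKM in controls, from 2.23 to 2.81 after Hal, and from 1.59 to 3.03 after Pic, and neither difference passed (adjusted p = 0.48 and 0.732).

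BnaA07g37740D was higher after both herbicides at 48 h, when its controls held almost no reads. They gave 0.0956, 0.1003, and 0.183 FPKM, which is 4 reads over the 3 libraries. Hal-treated leaves had 1.21, 1.47, and 1.02 FPKM (49 reads) and Pic-treated leaves 2.32, 1.59, and 2.06 FPKM (73 reads). The 3 groups did not overlap. The log2 increases were 0.98 after Hal (SE 0.176, adjusted p = 5.93e-05) and 1.40 after Pic (adjusted p = 1.01e-06). As this gene met the threshold only through treated leaves, these differences were in part set by the selection. With so few control reads, the depth-corrected ratios had wide exact intervals, 9.65 (3.54 to 36.8) for Hal and 15.7 (5.87 to 59.0) for Pic.

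The controls of BnaA07g37740D were higher at the other times, and the groups then overlapped. At 96 h they had 0.824, 0.571, and 0.734 FPKM, against 0.826, 1.12, and 0.690 after Hal and 0.733, 1.23, and 1.41 after Pic. Neither difference passed, with 0.13 for Hal (adjusted p = 0.534) and 0.30 for Pic (adjusted p = 0.162). With equal totals of reads, both passed, at 0.41 (adjusted p = 0.0493) and 0.49 (adjusted p = 0.0243), but relative to the median of all tested genes, which shifted along, the values were -0.02 and 0.22. At 2 h, the values were 0.377, 0.441, and 0.941 FPKM in controls, 0.777, 0.577, and 0.152 after Hal, and 0.0808, 0.212, and 0.536 after Pic, and no difference was detectable at this depth.

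**Figure D2:**
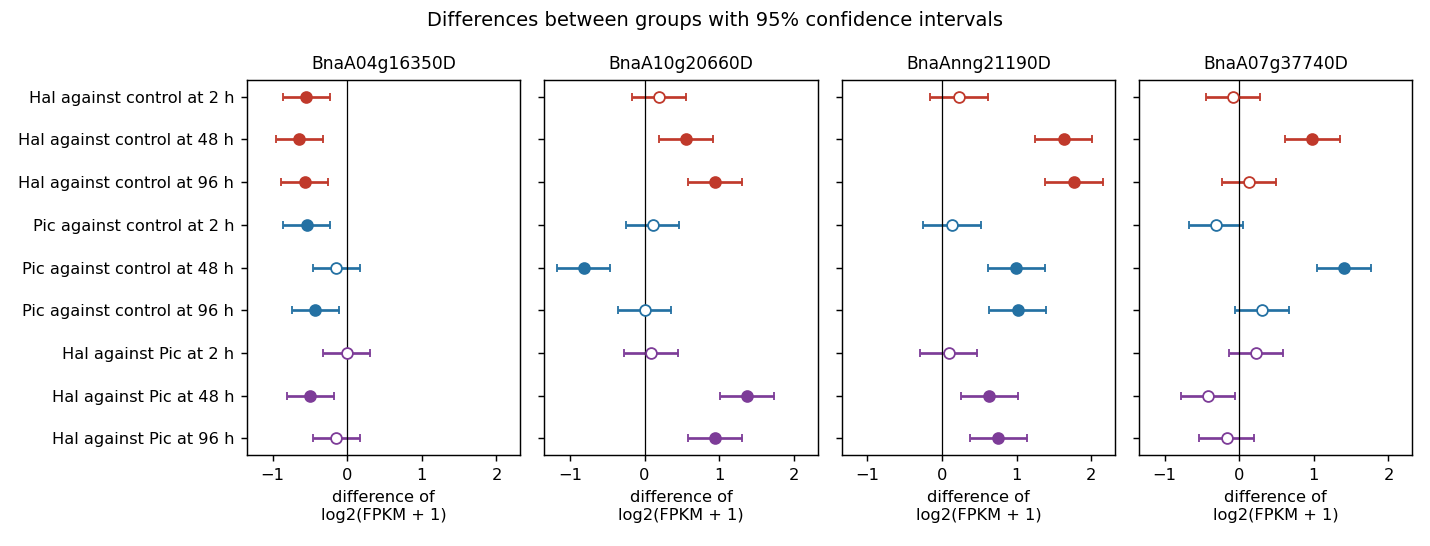
Differences of the group means of log2(FPKM + 1) (horizontal axes) of the 4 LOG-type genes for 9 comparisons (rows), with 95% confidence intervals; filled points passed the adjusted p threshold of 0.05. BnaA10g20660D lay at 0.56 for Hal and -0.82 for Pic at 48 h, while the negative values of BnaA04g16350D at 48 and 96 h turned positive, except for Hal at 48 h and Hal against Pic at 48 h, when libraries were set to equal totals of reads.

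The herbicides were also compared directly at the doses used. At 2 h, none of the 4 genes differed between Hal and Pic in limma (unadjusted p from 0.209 to 0.982), whereas 9.04% of the tested genes were called up and 11.2% down. The 95% interval of the difference for BnaA04g16350D was -0.32 to 0.31 on the log2 scale. The widest, for BnaAnng21190D, ran from -0.30 to 0.47. At 48 h, 2 genes were higher and 1 was lower after Hal than after Pic, with 14.6% of the tested genes called up and 16.8% down. BnaA10g20660D differed most, being 4.79-fold higher after Hal in mean FPKM (log2 difference 1.37, SE 0.173, adjusted p = 8.82e-07). BnaAnng21190D was 0.64 higher (adjusted p = 0.0104), but without Hal replicate 2, the highest library, only 0.49 (adjusted p = 0.0771).

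BnaA04g16350D was 0.49 lower after Hal than after Pic at 48 h (adjusted p = 0.015). Without Hal replicate 2 it was lower by 0.43 (adjusted p = 0.0674), without Pic replicate 3 by 0.35 (adjusted p = 0.117), and with equal totals of reads by 0.33 (adjusted p = 0.0877). All Hal libraries of BnaA07g37740D were below those of Pic, at -0.42, but this did not pass (95% interval -0.79 to -0.06, adjusted p = 0.0725). At 96 h, 2 of the 4 genes were higher after Hal than after Pic, where 23.0% of the tested genes were called up and 22.0% down. These were BnaA10g20660D with 0.94 (2.45-fold, adjusted p = 8.44e-05) and BnaAnng21190D with 0.76 (2.04-fold, adjusted p = 0.00181). BnaA04g16350D with -0.14 (adjusted p = 0.471) and BnaA07g37740D with -0.17 (adjusted p = 0.466) did not differ beyond their spread.

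In control leaves, 3 of the 4 genes changed between 2 and 48 h, where 16.9% of the tested genes were called up and 13.5% down. BnaA04g16350D rose by 0.53 (adjusted p = 0.0103), BnaAnng21190D fell by 0.51 (adjusted p = 0.0393), and BnaA07g37740D fell by 0.48 (adjusted p = 0.0425). BnaA10g20660D differed by -0.02 (95% interval -0.38 to 0.34, adjusted p = 0.942). The last 2 calls were lost in most fits without 1 library. BnaAnng21190D lost it without control replicate 2 or 3 of either time (-0.52 to -0.42, adjusted p up to 0.15), and BnaA07g37740D without control replicate 2 or 3 of 2 h or any one replicate of 48 h (-0.54 to -0.32, adjusted p up to 0.224). Both were also lost with no filter on low values (adjusted p = 0.0648 and 0.0585), with only the compared libraries (0.0618 and 0.0568), and with voom (0.105 and 0.0709). The rise of BnaA04g16350D was lost without control replicate 1 of 48 h (0.40, adjusted p = 0.072) and was 0.18 with equal totals of reads (adjusted p = 0.348). Of the 52 tested leaf marker genes, 48 rose over the same interval, and their part in it was not tested.

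Between 48 and 96 h, only BnaA07g37740D of the 4 genes changed in controls, rising by 0.60 (adjusted p = 0.0119) from 4 to 21 reads, where 17.5% of the tested genes were called up and 12.3% down. With equal totals of reads, this rise was 0.48 (adjusted p = 0.0511). From 2 to 96 h, BnaA04g16350D rose by 0.58 (adjusted p = 0.00331) and BnaAnng21190D fell by 0.57 (adjusted p = 0.0159), with 25.2% of the tested genes called up and 19.2% down. The rise of BnaA04g16350D was 0.13 with equal totals of reads (adjusted p = 0.493). The fall of BnaAnng21190D was lost without control replicate 3 of 2 h (-0.47, adjusted p = 0.0754) or control replicate 2 of 96 h (-0.49, adjusted p = 0.0653), and with voom (adjusted p = 0.0595). BnaA10g20660D, at -0.16 with the deposited scaling, passed with equal totals of reads (-0.45, adjusted p = 0.0374, or -0.18 relative to the median of all tested genes).

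Whether the response to a herbicide changed between times was tested as the change of the difference to the controls. From 2 to 48 h, 2 of the 4 genes changed in their Hal response, BnaAnng21190D by 1.41 (adjusted p = 0.00015) and BnaA07g37740D by 1.07 (adjusted p = 0.00147), where 37.1% of the tested genes were called. For Pic, 3 of the 4 changed over this interval, with BnaA10g20660D as the one with a negative sign (-0.93, adjusted p = 0.00689), where 23.0% were called. BnaA04g16350D passed as well for Pic with equal totals of reads (0.58, adjusted p = 0.0451, or 0.46 relative to the median of all tested genes). From 48 to 96 h, 1 of the 4 changed for Hal (BnaA07g37740D, 25.9% of the tested genes called) and 2 for Pic (BnaA07g37740D and BnaA10g20660D, 28.1% called).

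The order of the group means also differed between the 4 genes. BnaAnng21190D was highest after Hal at 96 h (4.21 ± 0.883 FPKM) and 48 h (3.97 ± 1.16 FPKM), followed without overlap by Pic at 48 h (2.15 ± 0.321 FPKM) and 96 h (2.07 ± 0.266 FPKM). It was lowest in controls at 48 and 96 h. BnaA10g20660D had the same first 2 groups, with 4.39 ± 1.01 and 3.48 ± 0.392 FPKM, and Pic at 48 h at the end. BnaA07g37740D was highest after Pic at 48 h (1.99 ± 0.370 FPKM), with no overlap to the next group, Hal at 48 h (1.23 ± 0.226 FPKM). BnaA04g16350D was highest in controls at 96 h (45.5 ± 3.49 FPKM) and 48 h (44.1 ± 7.26 FPKM) and lowest after the herbicides at 2 h, and only these last 2 groups were separated from their neighbor above.

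Summed over all 15 genes, the LOG-type transcripts amounted to 34.6 ± 0.725 FPKM in controls at 2 h, 47.4 ± 8.21 at 48 h, and 49.2 ± 3.42 at 96 h. After Hal, the sums were 25.4 ± 3.00, 37.4 ± 2.84, and 41.6 ± 4.72 FPKM. After Pic, they were 25.7 ± 5.27, 46.0 ± 6.86, and 40.2 ± 2.26 FPKM. BnaA04g16350D made up most of each sum, so that the sums at 48 and 96 h also move with equal totals of reads.

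The composition of the sum is a ratio within a library and does not depend on that scaling. The share of BnaA04g16350D was 93.1% ± 1.34 in controls at 48 h and 92.5% ± 0.881 at 96 h. It was 74.2% ± 2.92 and 73.0% ± 2.50 after Hal, and 86.3% ± 2.78 and 83.5% ± 1.37 after Pic. At 2 h, the shares were 86.8% (control), 80.1% (Hal), and 80.2% (Pic). The 3 less abundant genes together had 2.80 ± 0.859 FPKM in controls and 8.69 ± 1.15 FPKM after Hal at 48 h, and 3.01 ± 0.319 and 9.48 ± 1.23 FPKM at 96 h. After Pic, they had 4.87 ± 0.632 and 4.98 ± 0.298 FPKM. These sums are descriptions, and no test was run on them.

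**Figure D3:**
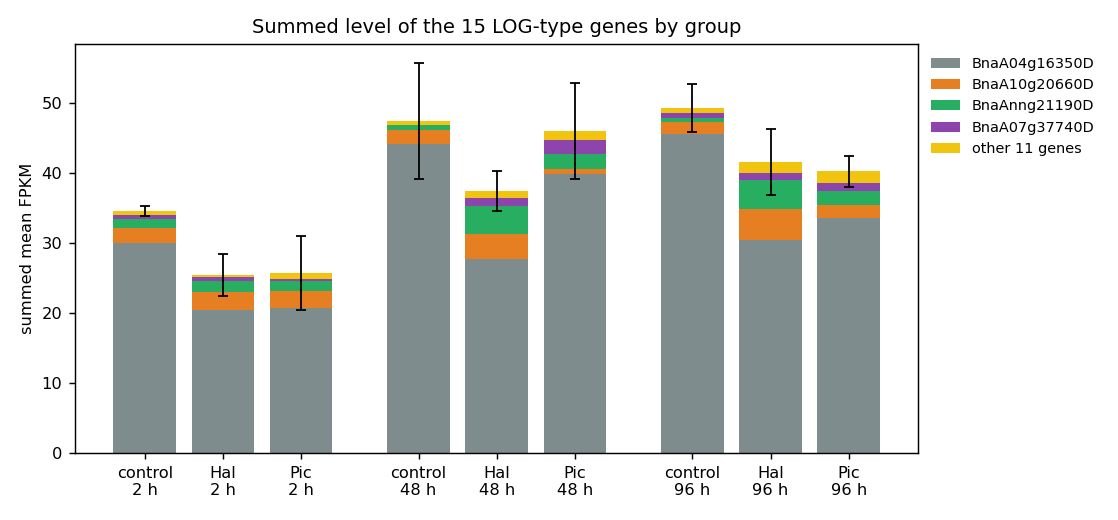
Summed mean FPKM of the 15 LOG-type genes (vertical axis) in the 9 groups, stacked by gene, with the 11 genes below the threshold as 1 segment; error bars give the SD of the sum over 3 libraries. BnaA04g16350D made up 93.1% of the sum in controls and 74.2% after Hal at 48 h.

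The 11 genes below the threshold added between 0 and 39 reads per library. Their reads per group were 31, 24, and 24 in controls, 13, 39, and 92 after Hal, and 36, 58, and 83 after Pic at 2, 48, and 96 h. Most came from BnaA09g04390D (141 reads over all libraries) and BnaC02g02030D (118 reads). BnaA09g04390D had 48 reads after Pic at 96 h, against 9 in controls and 12 after Hal. BnaC02g02030D had 34 reads after Hal and 25 after Pic at 96 h, against 6 in controls.

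Among the others, BnaC03g65410D had reads only after Hal, 3 at 48 h and 15 at 96 h. With 3 reads taken for the control group in place of 0, its depth-corrected ratio after Hal at 96 h was 3.28. BnaAnng11570D had 14 reads after Hal and 0 in controls at that time, a ratio of 3.06 in the same way. Neither ratio covers the counting error of the reads after Hal. BnaC06g14640D and BnaA03g17070D had 29 and 38 reads in all, and BnaC04g27300D 13. The 4 remaining genes, BnaAnng18400D, BnaC02g03250D, BnaA04g21060D, and BnaC04g45030D, had between 1 and 10 reads over the 27 libraries. Differences between groups were not tested for these 11 genes.

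The 4 genes did not share a pattern over the libraries. Pearson's r of log2(FPKM + 1) between pairs of them ran from -0.37 for BnaA04g16350D with BnaA10g20660D to 0.498 for BnaAnng21190D with BnaA07g37740D. The 27 libraries of these values come from 9 groups that share treatments and times, so r is a description. For each gene, the 3 described genes of most similar pattern were taken.

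BnaAnng21190D was most similar to a CO(2)-response secreted protease (BnaC05g15670D, r = 0.906), an auxin-responsive protein (BnaA01g28670D, r = 0.905), and a phosphatidylinositol 4-kinase (BnaC05g49350D, r = 0.904). BnaA04g16350D was most similar to a sulfotransferase (BnaCnng56120D, r = 0.92), a small ubiquitin-related modifier (BnaA02g09210D, r = 0.91), and a chlorophyll a-b binding protein (BnaCnng04230D, r = 0.904). Values for the other 2 genes were lower. BnaA10g20660D reached 0.807 with an amine oxidase (BnaC03g69740D), 0.805 with the pathogenesis-related protein PR1 (BnaC03g45470D), and 0.801 with a phospholipid-transporting ATPase (BnaA07g37090D). BnaA07g37740D reached 0.817 with an adenylyl-sulfate kinase (BnaC05g47640D), 0.81 with a sodium/hydrogen exchanger (BnaC05g46790D), and 0.809 with a sulfotransferase (BnaC06g15020D). Among all tested genes, r of at least 0.9 was found for 25 genes with BnaA04g16350D, 10 with BnaAnng21190D, 1 with BnaA10g20660D, and 0 with BnaA07g37740D.

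Other steps of the cytokinin pathway were examined by description and protein domain. The step before LOG was represented by 24 genes with the IPPT domain of adenylate and tRNA isopentenyltransferases, and 7 of them were tested. After Hal, 5 of the 7 fell at 48 h and 7 of 7 fell at 96 h, with median differences of -0.90 and -1.51, where 25.1% and 30.2% of all tested genes were called down. After Pic, 0 rose or fell at 2 h, where 10.7% of all tested genes were called up and 9.37% down. At 48 h, 2 fell, and at 96 h, 4 fell (median -1.19), where 17.9% and 26.4% of all tested genes were called down. The median of all tested genes was 0.01 for Hal at 48 and 96 h and -0.01 for Pic at 96 h. All these falls are differences from controls of the same time. In controls, 5 of the 7 rose and 0 fell from 2 to 96 h, where 25.2% of all tested genes were called up and 19.2% down. The falls at 96 h were called for the same number of genes with equal totals of reads. Of these genes, BnaA09g55640D met the threshold only through controls, with a mean of 3.49 FPKM in controls at 96 h and treated means up to 0.61 FPKM. Its falls at 96 h after both herbicides were thus in part set by the selection. At 2 h after Hal, 2 rose and 1 fell, where 10.1% of all tested genes were called up and 11.4% down. The number that rose was between 0 and 1 in 6 of the alternatives.

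BnaA02g04650D, which has this domain and no other description, had 3.86 to 5.26 FPKM in controls at 96 h, at most 0.0677 FPKM after Hal, and 2.55 to 3.00 FPKM after Pic. After Hal, only 2 reads were left over 3 libraries (log2 difference -2.36, SE 0.213, adjusted p = 9.75e-10). The Pic difference was -0.49 (adjusted p = 0.0586). BnaC04g20940D, likewise known by its domain, was below controls after both herbicides at 96 h. It had 6.14 ± 0.652 FPKM in controls, 1.51 ± 0.346 after Hal (adjusted p = 2.04e-08), and 1.53 ± 0.494 after Pic (adjusted p = 5.19e-08). At 2 h, it had 0.899 FPKM in controls, 0.704 after Hal, and 0.942 after Pic. The difference at 96 h thus arose with a rise in controls, which were at 3.52 FPKM at 48 h. At 96 h after Hal, of the 3 called LOG-type genes, BnaAnng21190D and BnaA10g20660D rose and BnaA04g16350D, the most abundant one, fell.

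Downstream, 15 genes had the Hpt domain of phosphotransfer proteins, and 11 of them were tested. After Hal, 7 rose and 1 fell at 48 h, and 4 rose and 1 fell at 96 h, with medians of 0.66 and 0.40. Of all tested genes, 23.3% and 29.1% were called up at these times, and 25.1% and 30.2% down. The 4 of 11 that rose at 96 h were thus near the background. After Pic, 5 rose and 0 fell at 48 h, and 4 rose and 4 fell at 96 h. Here, 13.9% and 22.2% of all tested genes were called up, and 17.9% and 26.4% down. With equal totals of reads, which raised the median of all tested genes by 0.41 for Hal and 0.29 for Pic at 96 h, 8 rose after Hal and 0 fell after Pic. BnaA10g01920D, histidine-containing phosphotransfer protein 5, had 10.2 ± 1.96 FPKM after Hal at 96 h and 4.66 ± 1.59 in controls (log2 difference 1.00, adjusted p = 2.14e-05), while Pic gave 5.19 ± 0.864 FPKM (adjusted p = 0.478). BnaA03g34150D, known by its domain, had 0 reads in all controls. With 3 reads taken for the control group in place of 0, its depth-corrected ratios at 48 h were 31.5 for Pic and 14.7 for Hal. These do not cover the counting error of the treated reads. BnaA03g34150D, BnaC05g36960D, BnaC03g39610D, and BnaA01g25020D of this list met the threshold only through treated leaves. Control means were up to 0.23 FPKM for the first 3 and up to 0.88 FPKM for BnaA01g25020D. These were also the 4 genes that rose after Pic at 96 h. The counts of genes that rose and the difference of BnaA03g34150D were thus in part set by the selection.

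Of 10 described response regulators, 5 were tested, and 1 rose after Hal at each time, where 10.1%, 23.3%, and 29.1% of all tested genes were called up. The number at 96 h was 3 with equal totals of reads, which raised the median of all tested genes by 0.41. After Pic, 0 rose at 2 h and 1 rose at 48 and at 96 h, where 10.7%, 13.9%, and 22.2% of all tested genes were called up. In addition, 1 fell after Hal at 2 h and 1 after Pic at 48 h, where 11.4% and 17.9% of all tested genes were called down. BnaA02g25910D had 1.79 ± 0.198, 1.14 ± 0.294, and 1.74 ± 0.187 FPKM in controls at 2, 48, and 96 h. After Hal it had 3.37 ± 0.525, 3.76 ± 0.254, and 4.56 ± 0.854 FPKM (adjusted p = 0.00708, 3.22e-06, and 1.41e-05). After Pic it had 1.98 ± 0.331, 2.89 ± 0.669, and 3.07 ± 1.03 FPKM (adjusted p = 0.766, 0.000296, and 0.00999). By the words and domains used, 0 genes were found for cytokinin hydroxylases, dehydrogenases, glucosyltransferases, receptors, and base salvage. Only 9548 of all genes carried a description that went beyond the gene name.

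**Figure D4:**
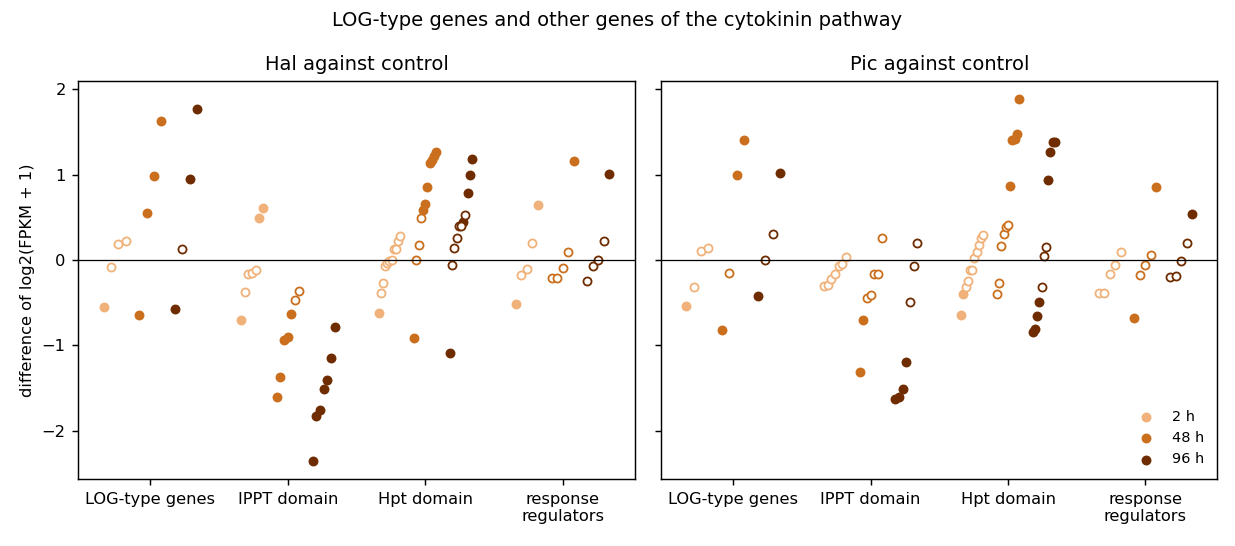
Differences of log2(FPKM + 1) between herbicide and control (vertical axis) for each tested gene of 4 lists (horizontal axis: LOG-type genes, IPPT domain, Hpt domain, response regulators), in the left panel for Hal and in the right for Pic, colored by time; filled points passed the adjusted p threshold of 0.05. After Hal at 96 h, all 7 genes with the IPPT domain were called down, and of the LOG-type genes 2 were called up and 1 down, the latter not with equal totals of reads.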

How the data were processed

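The authors deposited FPKM values per gene for 27 libraries. Library preparation and sequencing were done by Novogene. The submitters' processing notes name CASAVA, HISAT2, StringTie, DESeq2, edgeR, and GATK, without roles here. The genome build and strand setting are not given in the sources used here. Whole reads were recovered from FPKM multiplied by gene length, and 100% of the values came out whole within 0.05 reads. The deposited scaling was 0.751 to 1.25 times the totals of reads. This factor differed between groups at 96 h, with 0.751 to 0.808 in controls, 1.07 to 1.09 after Pic, and 1.20 to 1.25 after Hal. At 2 h it ran from 1.06 to 1.14 over all groups.

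Group differences were estimated on log2(FPKM + 1) with limma 3.58.1 (R 4.3.3), in a single fit of the 9 groups with a trended variance. Genes with FPKM of at least 1 in at least 3 libraries were tested. P-values are two-sided and Benjamini-Hochberg adjusted over all 46395 tested genes within each contrast, with a threshold of 0.05. The code of the test was run on simulated data with a common dispersion and few changed genes. This does not show how the test performs on the present data, where many genes changed. Replicate p-values measure the spread between these libraries.

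The 4 genes, the pathway lists, and the marker lists were chosen with earlier results of these data known. Named by rule were all LOG-type genes, the 3 described genes of highest r with each of the 4, and from each pathway list the gene of smallest p for each herbicide at 96 h. Intervals of count ratios are exact binomial and cover counting error only. Alternatives were equal totals of reads or median-ratio scaling, a pseudocount of 0.1, a filter at FPKM 5 or none, a fit of the compared groups alone, a block for replicate numbers, voom, a minimum log2 difference of 1, and omission of each library in turn.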

Additional observations from a re-analysis of the deposited data

Results flagged for a closer look

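Several responses differed between harvest times in limma's test of the change of the treated minus control difference itself, on the log2(FPKM + 1) scale. For BnaAnng21190D, the response to Hal increased by 1.41 from 2 to 48 h (SE 0.264, adjusted p = 0.00015), and that to Pic by 0.86 (adjusted p = 0.0193). The change for Pic was lost in 4 fits without 1 library: control replicate 3 (0.76) or Pic replicate 3 (0.64) of 2 h, and control replicate 3 (0.78) or Pic replicate 1 (0.78) of 48 h.

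For BnaA07g37740D, the response increased from 2 to 48 h by 1.07 for Hal (adjusted p = 0.00147) and by 1.72 for Pic (adjusted p = 1.2e-05), and then changed by -0.85 for Hal (adjusted p = 0.0135) and by -1.10 for Pic (adjusted p = 0.00176) from 48 to 96 h. With equal totals of reads, the later change for Hal was -0.66 (adjusted p = 0.055). The controls of 48 h, with 4 reads, enter all 4 of these values. The gene also met the threshold only through treated leaves at 48 and 96 h, so these changes were in part set by the selection.

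For BnaA10g20660D, the response to Pic changed by -0.93 from 2 to 48 h (SE 0.245, adjusted p = 0.00689) and by 0.82 from 48 to 96 h (adjusted p = 0.0146).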

How the results depend on the processing

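All values here are differences of log2(FPKM + 1). Over 10 alternatives other than leaving out libraries, 321 of 333 values of the 4 genes for the 9 herbicide comparisons kept their direction and their side of the threshold. Equal totals of reads changed most of the others, and median-ratio scaling none of the calls. With equal totals of reads, BnaA04g16350D was at -0.26 and 0.061 for Hal at 48 and 96 h, 0.072 and 0.031 for Pic, and -0.33 and 0.030 for Hal against Pic, while its control change from 48 to 96 h was -0.053 and the change of its Hal response from 2 to 48 h 0.26. Its change of the Pic response over that interval passed at 0.58, and BnaA10g20660D passed at -0.45 for controls from 2 to 96 h. BnaA07g37740D was at 0.41 for Hal and 0.49 for Pic at 96 h and at -0.051 for controls from 2 to 96 h. Equal totals of reads moved the median of all tested genes, while the deposited scaling relative to the totals differed between groups. Which of these scalings is closer to the RNA content of the leaves was not tested. With only the compared libraries, the fall of BnaA04g16350D after Pic at 2 h stayed at -0.54 but had an adjusted p of 0.0555 with fewer samples. Its Hal against Pic value at 2 h was 0.0047 with median-ratio scaling over the tested genes and 0.0036 with limma voom, and BnaA10g20660D for Pic at 96 h was -0.0046 with voom. None of these 3 was called in either fit. An FPKM of at least 5 left only BnaA04g16350D testable.

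Leaving out each library in turn gave the following ranges for values that changed call or sign, and the cause was not tested. BnaA04g16350D ran from -0.68 to -0.48 for Hal and from -0.67 to -0.35 for Pic at 2 h, from -0.48 to -0.37 for Pic at 96 h, from -0.20 to 0.13 and from -0.57 to -0.35 for Hal against Pic at 2 and 48 h, from -0.029 to 0.18 for controls from 48 to 96 h, and from -0.18 to 0.037 and from -0.059 to 0.15 for the changes of the Hal response. BnaA10g20660D ran from 0.37 to 0.69 for Hal at 48 h, from -0.027 to 0.29 and from -0.12 to 0.085 for Pic at 2 and 96 h, from -0.099 to 0.22 for Hal against Pic at 2 h, and from -0.16 to 0.16 for controls from 2 to 48 h. BnaAnng21190D ran from -0.027 to 0.36 for Pic at 2 h, from -0.13 to 0.25 and from 0.49 to 0.84 for Hal against Pic at 2 and 48 h, from -0.13 to 0.073 for controls from 48 to 96 h, and from -0.065 to 0.28 and from -0.11 to 0.098 for the changes of the Hal and Pic responses from 48 to 96 h. BnaA07g37740D ran from -0.22 to 0.095 for Hal at 2 h.

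Same-numbered libraries did not deviate together (r from -0.21 to 0.11 over 27 pairs), and the replicate numbers were not used as pairs in the main fit. Whether same-numbered libraries were grown or handled together cannot be decided from these values. With the number as a replicate block over all times, the control change of BnaA07g37740D from 2 to 48 h was -0.48 with an adjusted p of 0.0528, and no other call of the 4 genes changed. The rise of genes with the IPPT domain after Hal at 2 h was 2 genes without the block and 0 or 1 with it. Requiring a log2 difference of at least 1 left 1587, 6398, and 10387 of 9995, 22486, and 27515 called genes for Hal, 1862, 2871, and 5167 of 9297, 14771, and 22539 for Pic, and 1643, 3276, and 5783 of 9408, 14563, and 20871 for Hal against Pic at 2, 48, and 96 h. For controls it left 2185, 2124, and 4135 of 14089, 13831, and 20587 (48 h against 2 h, 96 h against 48 h, and 96 h against 2 h). An FPKM of at least 5, with fewer genes tested, left 14156 and 16115 for Hal at 48 and 96 h, 14081 for Pic and 13508 for Hal against Pic at 96 h, and 13042 for controls from 2 to 96 h. The compared libraries alone gave 4717 for Hal against Pic at 2 h and 8209 for controls from 48 to 96 h. Genes with r of at least 0.9 numbered 305, 59, 759, and 48 over the 9 group means, against 25, 1, 10, and 0 over libraries, for BnaA04g16350D, BnaA10g20660D, BnaAnng21190D, and BnaA07g37740D. Depth limits BnaA07g37740D and the 11 genes below the threshold, where these 11 together held at most 39 reads per library.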
